A study of Mus musculus with 36 samples.

Results

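Mesenchymal stem cells of the lung (P-MSCs) were set against those of femoral bone marrow (fBM-MSCs), vertebral bone marrow (vBM-MSCs) and adipose tissue (A-MSCs), to find which genes set lung MSCs apart from MSCs of every other tissue. All cells came from untreated 8-week-old C57BL6/J mice. For both bone marrow MSCs the bone was crushed, whereas lung and adipose tissue were minced and digested with collagenase. The way of isolation thus cannot be told apart from marrow against non-marrow origin. All cells were then grown on collagen I-coated dishes in MesenCult medium with a Rock inhibitor, and were used within 3 passages without a sort. The 4 tissues were taken from the same 3 mice, but no source ties a library to its mouse, so libraries were treated as independent. Of the 11 RNA-seq libraries, 3 were P-MSCs, and the rest were 3 of A-MSCs, 3 of fBM-MSCs and 2 of vBM-MSCs.

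MSCs are stromal cells that adhere to plastic, carry a shared set of surface proteins and can be driven to form bone, fat or cartilage in culture. In the lung, mesenchymal cells lie beneath the airways and around alveoli and vessels, lay down elastic and basement membrane matrix, and signal to the epithelium. Mesenchyme along the body axis also keeps a record of its position in the Hox genes and in T-box and forkhead transcription factors, which are set during embryonic development and often persist in culture.

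The genes described were chosen in 2 ways. The first was non-overlap of levels in TPM, an RNA level scaled for transcript length and library size. Among 12509 genes tested, 2515 (20.1%) were higher in every P-MSC library than in every other library, and 1022 (8.17%) were lower. The calponin gene Cnn2 lay just inside this rule, with P-MSC levels of 1095 to 1208 TPM against a highest level of 1091 TPM elsewhere. Tbx3 lay just outside it, with P-MSC levels of 7.43 to 7.84 TPM against a highest level of 7.99 TPM elsewhere. The second was edgeR's quasi-likelihood test of P-MSCs against the mean of the other 3 tissue means, which called 2788 genes higher (22.3%) and 2794 genes lower (22.3%), 44.6% of all in either direction, at an adjusted p under 0.05. Of the non-overlapping genes, 2168 of the 2515 and 1016 of the 1022 were also called. Against each tissue separately, 882 genes were called higher and 1038 lower in all 3 contrasts.

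The scale decided how these numbers split. The median tested gene lay 0.09 higher in P-MSCs on log2(TPM + 1), and −0.01 after TMM normalization of counts. On TMM-normalized CPM (counts scaled to library size), 1787 genes did not overlap on the higher side and 1504 on the lower side, and 1776 and 1014 of these were the same genes as on TPM. Of the edgeR calls, 49.9% were higher, against 64.8% with library size as the only scaling and 60.6% with limma-trend on log2(TPM + 1). Fold changes below are edgeR's log2 fold changes after TMM, with their SE, and levels are TPM. For most non-overlapping genes the nearest tissue was adipose: it was nearest for 1636 of the 2515 higher genes and for 616 of the 1022 lower genes. Expected counts per library ranged from 31089045 to 40517739 in P-MSCs and from 19569650 to 39802027 elsewhere. The median SD between replicates on log2 CPM was 0.153 in P-MSCs, 0.21 in A-MSCs, 0.259 in fBM-MSCs and 0.246 in vBM-MSCs. P-MSC replicate 1 was the only P-MSC library with reads of the cartilage genes Col2a1 (4.21 TPM), Comp (0.87 TPM), Hapln1, Acan and Col9a1.

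The label of the cells was checked against surface markers of MSCs and markers of other lung cells. Transcripts of the MSC markers Itgb1 (CD29, 822 to 970 TPM), Cd44 (352 to 400 TPM), Vcam1 (CD106) and Ly6a (Sca-1) were present in every P-MSC library. Vcam1, an adhesion molecule for blood cells, was at 113.4, 115.8 and 117.5 TPM in P-MSCs and between 29.3 and 71.8 TPM elsewhere, and rose by 1.16 ± 0.15 (SE, adjusted p = 0.00011). Ly6a was at 42.3, 46.5 and 46.1 TPM in P-MSCs and between 114 and 805 TPM elsewhere, a difference of −2.95 ± 0.23 (SE, adjusted p = 2.7e-06). Of 12 tested MSC surface genes, 2 were higher and 5 lower, among them Pdgfrb, the receptor for PDGF-BB (−1.64 ± 0.12), and Eng, a co-receptor for TGF-beta (−1.25 ± 0.19).

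Many, though not all, markers of other cells were at or near 0 in P-MSCs. The blood cell marker Ptprc was at 0.20 to 0.35 TPM, low but above the at most 0.10 TPM of every other library, the endothelial markers Pecam1 and Cdh5 at no more than 0.33 and 0.08 TPM, and the epithelial marker Epcam at no more than 0.31 TPM. Sftpc and Nkx2-1, of alveolar epithelium, Wt1, of mesothelium, and Adgre1 and Clec10a, of macrophages, were at 0 in all 3 libraries. Of the whole lists, 6 of 26 macrophage genes, 1 of 26 genes of other blood cells, 10 of 20 endothelial, 7 of 25 epithelial and 8 of 14 mesothelial genes were expressed enough to be tested. Summed macrophage levels were 28.8 to 32.7 TPM in P-MSCs, of which Mgl2 made up 12.8 to 15.4 TPM, against 19.7 to 29.9 TPM in A-MSCs, 45.6 to 73.2 TPM in fBM-MSCs and 25.2 to 55.6 TPM in vBM-MSCs. Cd14, the lipopolysaccharide co-receptor of monocytes and macrophages, was at 4.69 to 5.60 TPM in P-MSCs, above the 1.20 to 4.36 TPM elsewhere, and was not called (0.74 ± 0.29, SE, adjusted p = 0.058). Summed endothelial levels were 19.4 to 32.3 TPM in P-MSCs, 51.9 to 129 TPM in A-MSCs and 5.55 to 18.2 TPM in the bone marrow MSCs. Summed epithelial levels were 56.3 to 66.4 TPM in P-MSCs, 57.6 to 95.1 TPM in A-MSCs and 6.02 to 17.1 TPM in the bone marrow MSCs. Summed mesothelial levels were 110 to 138 TPM in P-MSCs, 136 to 192 TPM in A-MSCs, 4.86 to 17.4 TPM in fBM-MSCs and 218 to 584 TPM in vBM-MSCs. In these bulk libraries, fewer cells of a type and less RNA per cell cannot be told apart.

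A few members of these lists were nonetheless called. The keratin gene Krt19 was at 51.7 to 59.8 TPM in P-MSCs against 1.84 to 18.9 TPM elsewhere (2.27 ± 0.33, SE, adjusted p = 0.00022), while its partner keratins Krt8 and Krt18 were at no more than 0.24 and 1.01 TPM in P-MSCs. Krt7 (0 to 0.10 TPM in P-MSCs, 8.74 to 11.7 TPM in A-MSCs) was called lower through A-MSCs, since it was at no more than 0.66 TPM in the bone marrow MSCs. The mesothelial genes Msln and Upk1b were called higher against the mean of the tissues but were higher in A-MSCs than in P-MSCs: Upk1b was at 21.3 to 35.9 TPM in P-MSCs and 49.9 to 95.5 TPM in A-MSCs. The call of Upk1b was lost without P-MSC replicate 2 or replicate 3. Lyz2, the lysozyme of myeloid cells, was lower (1.76 to 2.71 TPM against 6.32 to 38.6 TPM). The part of other cells in the results below was not tested.

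The genes that stood farthest above every other tissue included those of a lectin, a germline factor, a smooth muscle repressor, transporters and developmental regulators. Mgl2, a galactose-binding C-type lectin known from macrophages and dendritic cells, was at 14.1, 12.8 and 15.4 TPM in the P-MSC libraries. Outside the lung it was detected in 1 library, A-MSC replicate 2, at 0.03 TPM. It lies on chr11:70130357-70137542 (+ strand, GRCm38, the build of mm10) and overlaps the gene model Gm12311.

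Morc1, which silences transposons in male germ cells, was at 3.39, 2.88 and 5.12 TPM in P-MSCs. It was the single tested gene with no count in any other library: against a floor of 3 counts per library, its 803 counts in P-MSCs were at least 70.5-fold higher. Of the 24 germline genes listed, 4 were expressed enough to be tested. Beside Morc1, Dnmt3l was called higher, with an overlap between tissues (2.17 to 3.17 TPM in P-MSCs, up to 4.87 TPM elsewhere). Its call was lost without any 1 of the P-MSC, A-MSC or vBM-MSC libraries. The call was also lost with the replicate number as a block in the edgeR test (adjusted p = 0.064).

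Prdm6, a transcriptional repressor of smooth muscle cells, was at 21.0, 20.6 and 22.3 TPM in P-MSCs. In the 8 other libraries it ranged from 0 to 1.18 TPM, the highest being vBM-MSC replicate 2. The difference was 5.96 ± 0.77 (SE, adjusted p = 9.5e-05), and 5.12 ± 1.25 against vBM-MSCs, the nearest tissue. The urea transporter Slc14a1 was at 2.15, 3.35 and 2.69 TPM in P-MSCs, at 0.07, 0.13 and 0.19 TPM in A-MSCs and at 0 in the bone marrow MSCs, with 4.21 ± 0.63 (SE, adjusted p = 0.0017) against A-MSCs. All P-MSC levels of both genes lay above all others.

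Nrn1, a small GPI-anchored protein that promotes neurite growth, was the most abundant of the leading genes. It was at 339.8, 349.3 and 405.4 TPM in P-MSCs, at 16.3, 18.9 and 19.3 TPM in A-MSCs, at 43.3, 32.6 and 37.5 TPM in fBM-MSCs and at 35.6 and 32.5 TPM in vBM-MSCs. The lowest P-MSC library thus lay far above the highest other library, fBM-MSC replicate 1. The fitted difference was 3.53 ± 0.11 (SE, adjusted p = 2.8e-08), and it was 4.13 ± 0.16 against A-MSCs, 3.14 ± 0.16 against fBM-MSCs and 3.33 ± 0.19 against vBM-MSCs.

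The amino acid transporter Slc38a4 was at 11.99, 9.98 and 15.1 TPM in P-MSCs. A-MSCs held 1.09, 0.75 and 0.09 TPM, and the bone marrow MSCs no more than 0.18 TPM. Its difference was 6.61 ± 0.61 (SE), and those of its relatives Slc38a1 and Slc38a2 were 1.41 ± 0.49 and 1.28 ± 0.10. Ramp3, a subunit of adrenomedullin receptors, was at 63.2, 36.4 and 44.3 TPM in P-MSCs against 0 to 6.81 TPM elsewhere (4.61 ± 0.42, SE).

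Lhx9, a LIM homeobox factor of gonad and limb development, was at 8.45, 10.01 and 8.59 TPM in P-MSCs and at 0 to 0.67 TPM elsewhere (5.33 ± 0.53, SE, adjusted p = 1.6e-05). Dkk2, a secreted modulator of Wnt signalling, was at 8.84, 10.5 and 9.32 TPM against 0 to 1.07 TPM (4.83 ± 0.77, SE). Crabp1, which binds retinoic acid in the cytosol, was at 13.8, 16.6 and 13.8 TPM against 0 to 2.27 TPM (5.04 ± 0.92, SE). Further genes with a wide gap were Tnnt2, the cardiac troponin T (22.2 to 23.1 against 1.09 to 3.61 TPM), the imprinted zinc finger gene Peg3 (11.99 to 14.25 against 0.08 to 2.45 TPM) and the long noncoding RNA Mannr (2.44 to 3.26 against 0 to 0.62 TPM). Mgl2, Morc1, Slc14a1, Slc38a4, Nrn1, Ramp3, Mannr and Peg3 overlap other annotated genes, and without strand information reads of the pairs cannot be told apart.

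**Figure D1:**
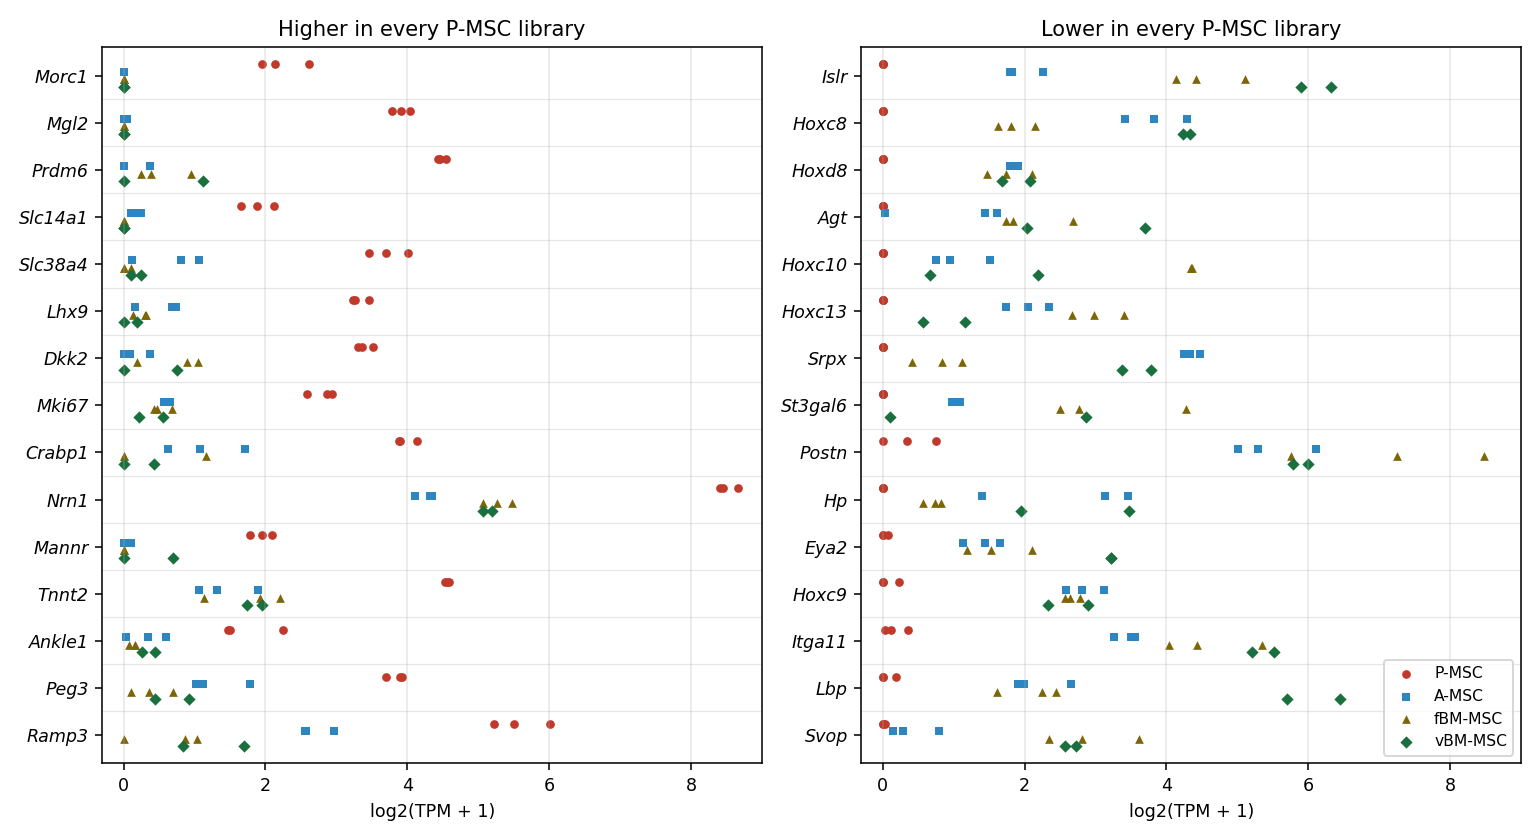
Levels on log2(TPM + 1) in each of the 11 libraries for the genes farthest above (left) and below (right) every other tissue, with 1 point per library and a colour and marker per tissue. The genes were picked from those without overlap, so the place of the P-MSC points to 1 side of all others follows from the choice. Nrn1 is the most abundant on the left, at 339.8 to 405.4 TPM, and the P-MSC points of the right panel lie at or near 0.

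Several of the genes that stood farthest below every other tissue had no count in P-MSCs. Islr, also called Meflin and a marker of undifferentiated MSCs, had no count in P-MSCs. It was at 2.47 to 79.1 TPM elsewhere, with means of 2.94 TPM in A-MSCs, 23.4 TPM in fBM-MSCs and 68.8 TPM in vBM-MSCs. Against a floor of 3 counts per library it was at least 53.6-fold lower than in A-MSCs, the nearest tissue.

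Further genes with no count in P-MSCs were Srpx, St3gal6, a sialyltransferase, Agt, the precursor of angiotensin, and Hp, the haemoglobin scavenger haptoglobin. They were at least 14.9-fold, 13.2-fold, 19.2-fold and 6.19-fold lower than in their nearest tissue. Lbp, which binds bacterial lipopolysaccharide, was at 0 to 0.14 TPM in P-MSCs and at 2.07 to 86.1 TPM elsewhere. In all, 132 tested genes had no count in any P-MSC library.

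Postn, the matrix protein periostin, was at 0.27, 0.69 and 0 TPM in P-MSCs and at 31.2 to 357 TPM elsewhere (−8.12 ± 0.90, SE, adjusted p = 3.1e-05). Itga11, a collagen-binding integrin chain, was at 0.02 to 0.28 TPM against 8.57 to 44.9 TPM (−7.39 ± 0.55, SE). Sema7a, a membrane-anchored semaphorin, was at 0.07 to 0.28 TPM against 7.57 to 32.4 TPM (−6.70 ± 0.34, SE). Dhrs3, a retinal reductase, was at 1.22 to 3.09 TPM against 36.03 to 72.7 TPM (−4.84 ± 0.39, SE). For each of these genes the levels did not overlap between P-MSCs and any other tissue.

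Transcription factors of lung mesenchyme were higher in part. Of 22 tested, 11 were called higher (4 with the other libraries as 1 group) and none lower. The median difference was 0.64 over the list against −0.01 over all genes tested. Tbx4 and Tbx5, T-box factors of lung and limb buds, led the called genes. Tbx4 was at 5.73, 6.98 and 8.77 TPM in P-MSCs, at 1.39, 1.07 and 0.96 TPM in fBM-MSCs, and at no more than 0.07 TPM in A-MSCs and vBM-MSCs. Tbx5 was at 2.04, 2.41 and 3.43 TPM in P-MSCs, at 1.31, 0.21 and 0.64 TPM in fBM-MSCs and at 0 elsewhere. Against fBM-MSCs, Tbx4 differed by 2.54 ± 0.55 (SE, adjusted p = 0.0027) and Tbx5 by 1.74 ± 0.68 (SE, adjusted p = 0.066), so the higher level of Tbx5 than in fBM-MSCs did not pass the threshold.

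Foxf1, a forkhead factor of lung mesenchyme downstream of Hedgehog, was at 20.4, 21.5 and 21.2 TPM in P-MSCs. It was at 12.7 and 6.24 TPM in vBM-MSCs, 1.46 to 2.74 TPM in A-MSCs and 0.14 to 1.12 TPM in fBM-MSCs, which gave 2.97 ± 0.35 (SE, adjusted p = 5.2e-05) overall and 1.03 ± 0.51 (SE, adjusted p = 0.13) against vBM-MSCs alone. Osr1, a zinc finger factor of early lung and body wall mesenchyme, was at 45.7 to 53.1 TPM against 0.87 to 16.2 TPM (2.88 ± 0.26, SE), and Foxp1 at 21.0 to 23.4 TPM against 6.66 to 17.1 TPM (1.04 ± 0.09, SE). Tcf21, a factor of lung and other visceral mesenchyme, was called higher but was lower than in A-MSCs, at 0.24 to 1.44 TPM against 3.82 to 4.85 TPM, and was listed at 0 in both bone marrow tissues.

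The Hox genes changed by cluster. These lie in 4 clusters, within which a higher paralogue number marks a more posterior position in the body. Of 26 tested Hox genes, 8 were higher (0 with the other libraries as 1 group) and 13 lower in P-MSCs. Without any 1 of the P-MSC libraries 5 were higher. The HoxB cluster held 4 higher and no lower genes, and the HoxA cluster 4 higher and 3 lower. All 7 tested HoxC genes and all 3 tested HoxD genes were lower.

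The higher genes were mostly anterior. Hoxb5 was at 7.59, 10.3 and 8.22 TPM in P-MSCs, 4.70 and 4.19 TPM in vBM-MSCs, 1.23 to 2.14 TPM in A-MSCs and no more than 0.19 TPM in fBM-MSCs (3.25 ± 0.46, SE, adjusted p = 0.00017). Hoxa5, which lung development needs, was at 20.5, 18.0 and 23.2 TPM in P-MSCs against 0.45 to 16.6 TPM elsewhere (1.92 ± 0.36, SE). Hoxa2 and Hoxa3 differed by 2.98 ± 0.55 and 2.12 ± 0.43, again with no overlap.

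The lower genes were mostly posterior. Hoxc8, Hoxc10, Hoxc13, Hoxd8, Hoxd9 and Hoxd10 had no count in any P-MSC library, and Hoxc8 was at least 51.3-fold and Hoxd8 at least 32.4-fold lower than in fBM-MSCs, their nearest tissue. Hoxa10 was at 0.02 to 0.11 TPM in P-MSCs against 0.54 to 28.6 TPM elsewhere, and Hoxa9 at 0 to 0.22 TPM against 0.49 to 7.82 TPM. HoxC genes of lower number were lower too: Hoxc6 was at 0.39, 0.14 and 0.34 TPM against 6.19 to 20.9 TPM (−5.43 ± 0.34, SE, adjusted p = 7.1e-07), Hoxc5 differed by −4.03 ± 0.34 and Hoxc4 by −1.88 ± 0.35. Hoxd8 and Hoxc9 overlap other gene models, from which their reads cannot be told apart.

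**Figure D2:**
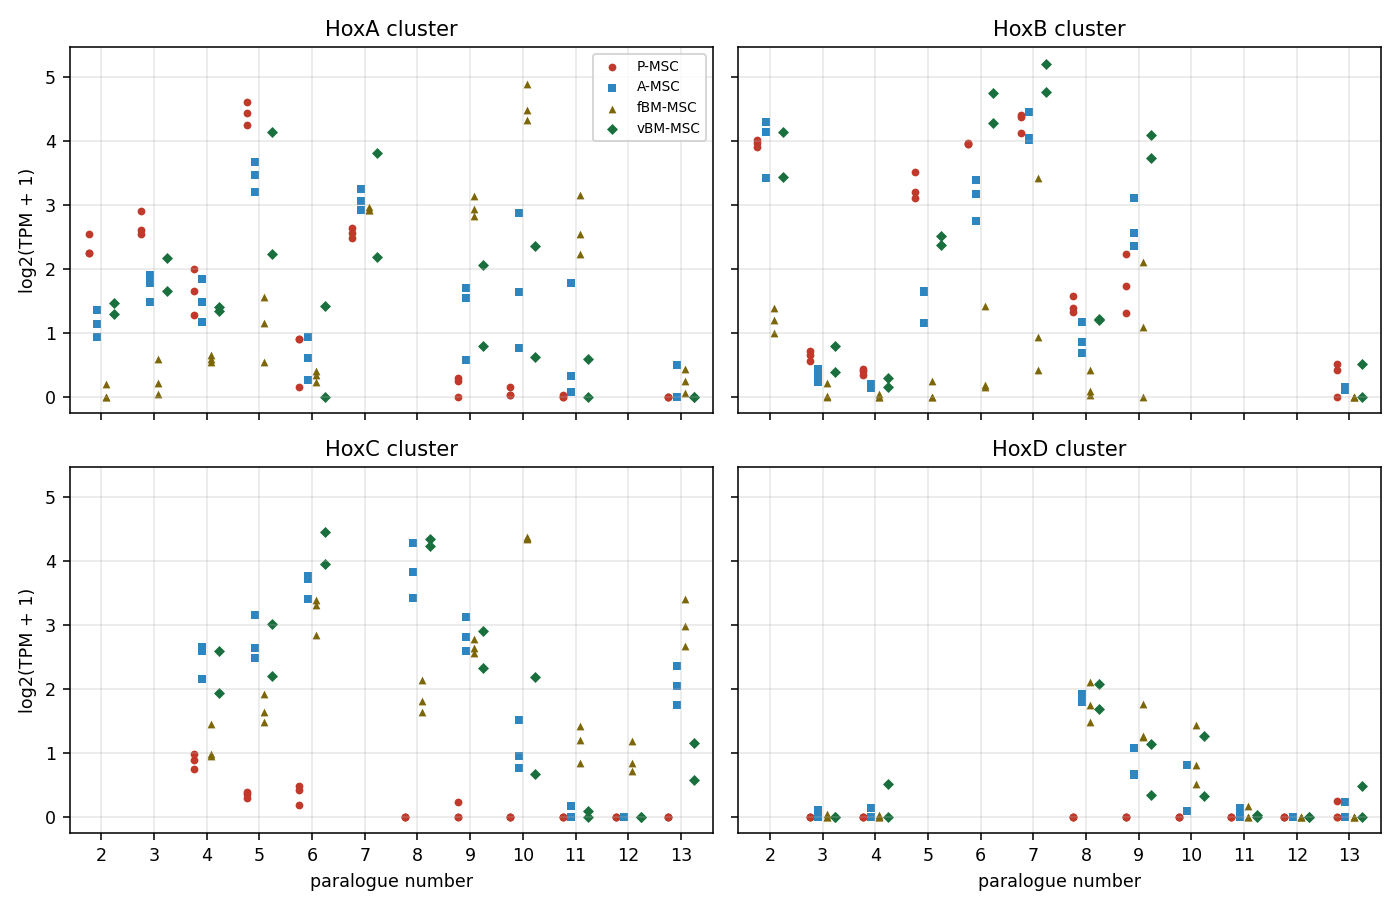
Levels on log2(TPM + 1) of the Hox genes with paralogue numbers 2 to 13 in the 4 clusters, with 1 point per library and a colour and marker per tissue. P-MSC points lie above the others for Hoxa2, Hoxa3, Hoxa5 and Hoxb5 and at or near 0 for the posterior HoxC and HoxD genes and for Hoxa9 and Hoxa10.

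Of 24 tested limb and axial patterning genes, 3 were higher (12.5%) and 4 lower (16.7%), beside 22.3% of all genes in each direction, and 8 were lower with limma-trend on log2(TPM + 1). Meis1, a partner of Hox proteins, was at 9.51 to 13.4 TPM in P-MSCs against 0.60 to 9.17 TPM elsewhere (1.88 ± 0.27, SE). Pax3 (0.75 to 1.27 TPM, no more than 0.33 TPM elsewhere) and Tbx20, a cardiac T-box factor (0.18 to 0.55 TPM, no more than 0.05 TPM elsewhere), were higher at low levels. Irx3 (0.02 to 0.10 TPM against 0.13 to 28.3 TPM), Meis3 (−0.62 ± 0.14, SE) and Hand2 were among the lower ones, and the call of Hand2 was lost without any 1 of the P-MSC libraries.

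Open chromatin at these genes was read from ATAC-seq, which marks accessible DNA by insertion of a transposase. The authors had called 1 peak list per tissue on pooled replicates, so a difference between lists has no replicate check. At a −log10 q of at least 7, the P-MSC list held 64057 summits on chromosomes 1 to 19, and the lists of A-MSCs, fBM-MSCs and vBM-MSCs held 71345, 64300 and 59536. Of these, 2267 P-MSC summits had no summit of any other tissue, of any strength, within 500 bases, and 1347 regions had a summit in all 3 other tissues and none in P-MSCs.

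Several leading genes had a promoter summit, within 1 kb of a start site, that passed this threshold in P-MSCs alone. They were Nrn1 (fold enrichment over background 8.09), Prdm6 (8.46), Lhx9 (9.93), Dkk2 (5.52), Pax3 (7.72) and Igf2bp1 (5.52). Each also had a weaker summit, below the threshold, in at least 1 other tissue: the highest was 3.31 for Nrn1, 4.41 for Dkk2 and Igf2bp1, and 4.78 for Prdm6, Lhx9 and Pax3. Tbx20 had a promoter summit in every tissue, with 26.5 in P-MSCs against 5.52 to 7.73 elsewhere. Tbx4 and Tbx5 had no promoter summit in any tissue at this threshold, but 2 and 5 P-MSC-only summits within 20 kb of the gene, and Prdm6 had 9. On the lower side, Hoxc13 had no promoter summit in P-MSCs against 21.0 in A-MSCs, 15.1 in fBM-MSCs and 7.73 in vBM-MSCs, and Hoxd8 had none against 9.93 in fBM-MSCs and 6.62 in vBM-MSCs, with a summit in A-MSCs as well. Mgl2, Morc1, Slc38a4, Ramp3, Crabp1, Tnnt2, Islr, Postn, Agt and Hp had no promoter summit in any of the 4 lists.

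The DNA around 5 of these summits is shown because 1 lies at the Nrn1 promoter and passed the threshold in P-MSCs alone, 3 lie at lung mesenchyme factors and were among the P-MSC-only summits, and 1 lies at a Hox gene and was open in every tissue but P-MSCs. Each window holds 201 bases, is centred on the summit, and is written 5′ to 3′ on the + strand of GRCm38 from the RefSeq genome. Capitals mark T-box letters (ACACCT, or AGGTGT on the other strand) in the Nrn1 window and E-box letters (CACGTG) in the Hoxc13 window, both motifs chosen with the windows known. The other windows held none of the 5 motifs searched, which are given with their shares after the sequences. The Nrn1 window lies at chr13:36734547-36734747, its summit at −170 from the start site. The Tbx4, Tbx5 and Foxf1 windows lie in introns at chr11:85894776-85894976, chr5:119877297-119877497 and chr8:121086223-121086423. The Hoxc13 window lies at chr15:102920752-102920952, its summit at −279 from the start site.
Nrn1 promoter: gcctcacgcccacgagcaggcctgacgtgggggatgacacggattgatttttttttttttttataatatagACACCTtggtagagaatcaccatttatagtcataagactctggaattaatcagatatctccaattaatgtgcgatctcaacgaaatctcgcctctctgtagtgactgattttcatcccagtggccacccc
Tbx4 intron: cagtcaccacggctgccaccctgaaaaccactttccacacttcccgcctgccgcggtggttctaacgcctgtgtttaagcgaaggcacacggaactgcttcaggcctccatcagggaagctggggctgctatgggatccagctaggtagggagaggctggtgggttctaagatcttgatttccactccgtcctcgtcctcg
Tbx5 intron: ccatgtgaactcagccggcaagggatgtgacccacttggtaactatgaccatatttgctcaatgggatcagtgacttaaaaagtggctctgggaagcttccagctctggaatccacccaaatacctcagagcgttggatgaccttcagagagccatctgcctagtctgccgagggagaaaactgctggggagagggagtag
Foxf1 intron: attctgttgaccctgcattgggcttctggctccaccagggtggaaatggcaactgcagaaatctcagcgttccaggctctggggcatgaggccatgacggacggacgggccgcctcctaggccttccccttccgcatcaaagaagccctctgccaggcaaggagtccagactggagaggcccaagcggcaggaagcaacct
Hoxc13 promoter: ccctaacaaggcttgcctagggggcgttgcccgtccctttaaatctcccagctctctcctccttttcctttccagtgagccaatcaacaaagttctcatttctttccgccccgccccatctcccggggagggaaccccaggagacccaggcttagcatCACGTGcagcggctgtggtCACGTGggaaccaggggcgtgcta

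Across windows of the same size, P-MSC-only summits held the AP-1 letters TGACTCA (or TGAGTCA) in 37.4%, against 28.7% of all P-MSC summits, 23.2% of summits shared by all tissues and 20% of summits of the other tissues alone. The forkhead letters TGTTTAC (or GTAAACA) were in 5.34%, against 2.87%, 2.24% and 1.93% in the same order. The T-box letters were in 9.79%, against 6.09%, 5.09% and 3.41%. The E-box was in 2.69%, against 4.21%, 4.62% and 2.82%, and the TEAD letters GGAATG (or CATTCC) in 21.1%, against 19.1%, 16.8% and 24.1%. The mean GC content of the windows was 44.3%, 52.1%, 55.7% and 48.9%, and its part in these shares was not tested.

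Promoter summits differed most at the genes with the widest gap in RNA level. Of all 12021 tested genes with an annotated start site, 88.1% had a promoter summit in P-MSCs, 89.0% in A-MSCs, 86.4% in fBM-MSCs and 88.2% in vBM-MSCs. Among the genes lower in every P-MSC library by at least 1 on log2(TPM + 1), 50.0% had one in P-MSCs, against 70.8%, 66.7% and 73.6%. At a −log10 q of at least 20 these shares were 29.2% in P-MSCs against 40.3%, 31.9% and 34.7%. Among the genes higher by that gap, 86.7% had one in P-MSCs, against 79.3%, 73.3% and 76.3%. At the threshold of 7, a promoter summit in P-MSCs alone was found at 8 of 135 such higher genes (5.93%), at 23 of 2436 genes higher in every P-MSC library (0.944%) and at 0.616% of all genes. One in every tissue but P-MSCs was found at 11 of 72 such lower genes (15.3%, and 4.17% at the stricter threshold), at 38 of 984 genes lower in every P-MSC library (3.86%) and at 1.04% of all genes. Within 20 kb of a gene, P-MSC-only summits were near 18.5% of the higher genes with a gap, 10.5% of all genes higher in every P-MSC library and 10.3% of all genes. Regions open in every other tissue but P-MSCs were near 18 of the 72 lower genes with a gap, 13.3% of all genes lower in every P-MSC library and 7.40% of all genes. Gene lengths differed, with a median of 26412 bases for the higher and 13579 bases for the lower genes with a gap, against 22367 bases for all.

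**Figure D3:**
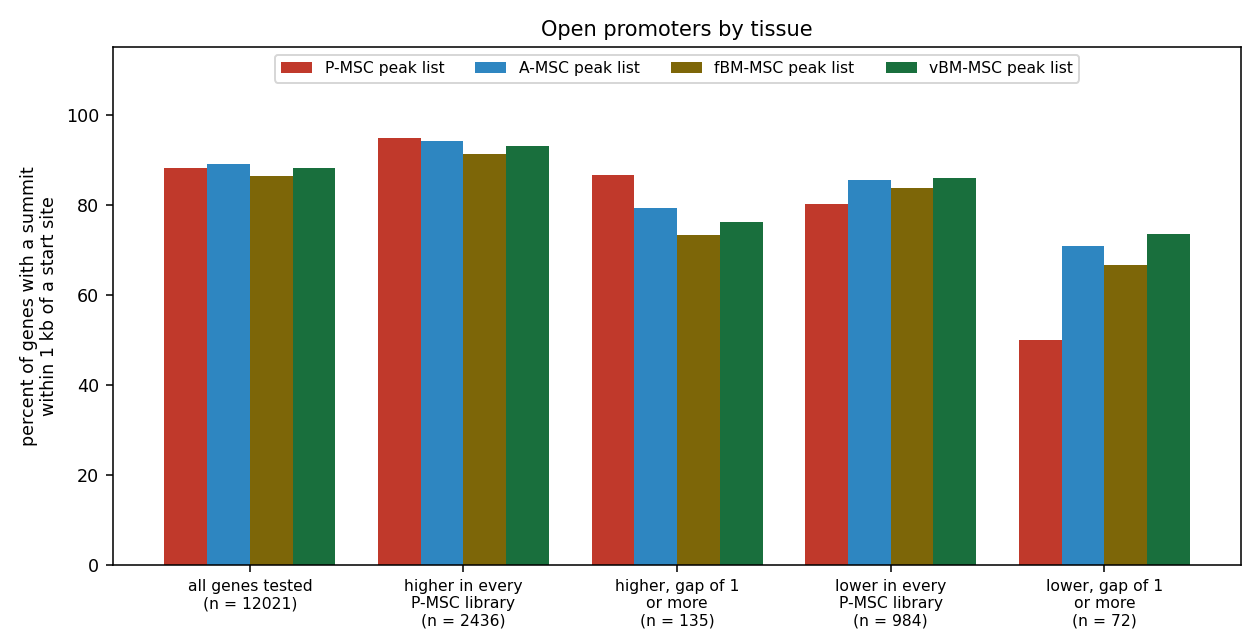
Percent of genes with an ATAC-seq summit within 1 kb of a start site in each of the 4 pooled peak lists (coloured bars), for all tested genes and for the genes that did not overlap between P-MSC and other libraries, with n the annotated genes. The bars of all genes lie between 86.4% and 89.0%, while the P-MSC bar of the lower genes with a gap of 1 or more stands at 50.0%, below the 66.7% to 73.6% of the other tissues.

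Genes of cell division were mostly higher in P-MSCs. Proliferating cells copy their DNA with the MCM helicase, the polymerases and their clamp, and separate chromosomes with spindle, kinetochore and checkpoint proteins. Of 40 replication genes, 37 were higher (35 with the other libraries as 1 group) and none lower, with a median difference of 1.98. Of 32 mitosis genes, 31 were higher (15 with the other libraries as 1 group), with a median of 2.48. All 20 genes of nucleotide synthesis were higher (median 0.88), as were 19 of 26 genes of homologous recombination and the Fanconi pathway (median 1.94) and 6 of 8 mismatch repair genes.

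The proliferation antigen Mki67 was at 5, 6.64 and 6.30 TPM in P-MSCs. It was at 0.49 to 0.57 TPM in A-MSCs, 0.35 to 0.60 TPM in fBM-MSCs and 0.16 and 0.47 TPM in vBM-MSCs, a difference of 3.71 ± 0.24 (SE). Unlike most of this group, it was about as low in A-MSCs as in bone marrow MSCs: the difference was 3.33 ± 0.33 against A-MSCs, 3.61 ± 0.34 against fBM-MSCs and 4.19 ± 0.41 against vBM-MSCs.

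Thymidine kinase Tk1, which salvages thymidine for DNA synthesis, was at 94.7, 88.1 and 107 TPM in P-MSCs, 28.1 to 33.8 TPM in A-MSCs and 3.59 to 8.96 TPM in bone marrow MSCs (3.12 ± 0.18, SE, adjusted p = 3.6e-07). Birc5, the inner centromere protein survivin, was at 304.6, 281 and 309 TPM in P-MSCs, 129 to 134 TPM in A-MSCs and 15.01 to 26.6 TPM in bone marrow MSCs (2.79 ± 0.11, SE). In both genes A-MSCs stood between P-MSCs and the bone marrow MSCs with no overlap. The replication licensing factor Cdc6 differed by 3.30 ± 0.21, the kinetochore gene Ndc80 by 3.20 ± 0.22 and the kinetochore motor Cenpe by 3.16 ± 0.27. The single mitosis gene that was lower was Pttg1, which encodes securin, the inhibitor of the protease separase: it was at 59.1 to 62.1 TPM in P-MSCs and 70.1 to 97.8 TPM elsewhere (−0.57 ± 0.10, SE, adjusted p = 0.0010).

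For mitosis and replication genes, A-MSCs were nearest. The median difference of the mitosis genes was 0.98 against A-MSCs, 3.46 against fBM-MSCs and 3.03 against vBM-MSCs, and that of the replication genes 1.06, 2.24 and 2.59. For the mismatch repair genes, whose medians were 1, 0.84 and 1.24, fBM-MSCs were nearest. Summed over the mitosis list, levels were 2426 to 2592 TPM in P-MSCs, 1325 to 1368 TPM in A-MSCs and 255 to 424 TPM in bone marrow MSCs.

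Of 18 tested brakes on the cell cycle, 8 were lower (44.4%) and 4 higher (22.2%, near the 22.3% of all genes). Cdkn2b, an inhibitor of CDK4 and CDK6, was at 23.6, 28.9 and 27.1 TPM in P-MSCs, 33.7 to 39.1 TPM in A-MSCs and 158 to 267 TPM in bone marrow MSCs (−2.30 ± 0.13, SE). The p53 target Cdkn1a was at 283 to 312 TPM in P-MSCs against 358 to 844 TPM elsewhere (−0.92 ± 0.09, SE), while Trp53 itself was at 187 to 206 TPM against 92.0 to 144 TPM (0.68 ± 0.10, SE). Cdkn2a was called lower (−1.13 ± 0.19, SE) through the bone marrow MSCs, at 41 to 111 TPM against 12.8 to 17.9 TPM in P-MSCs. In A-MSCs it was at 3.14 to 5.22 TPM, below P-MSCs.

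**Figure D4:**
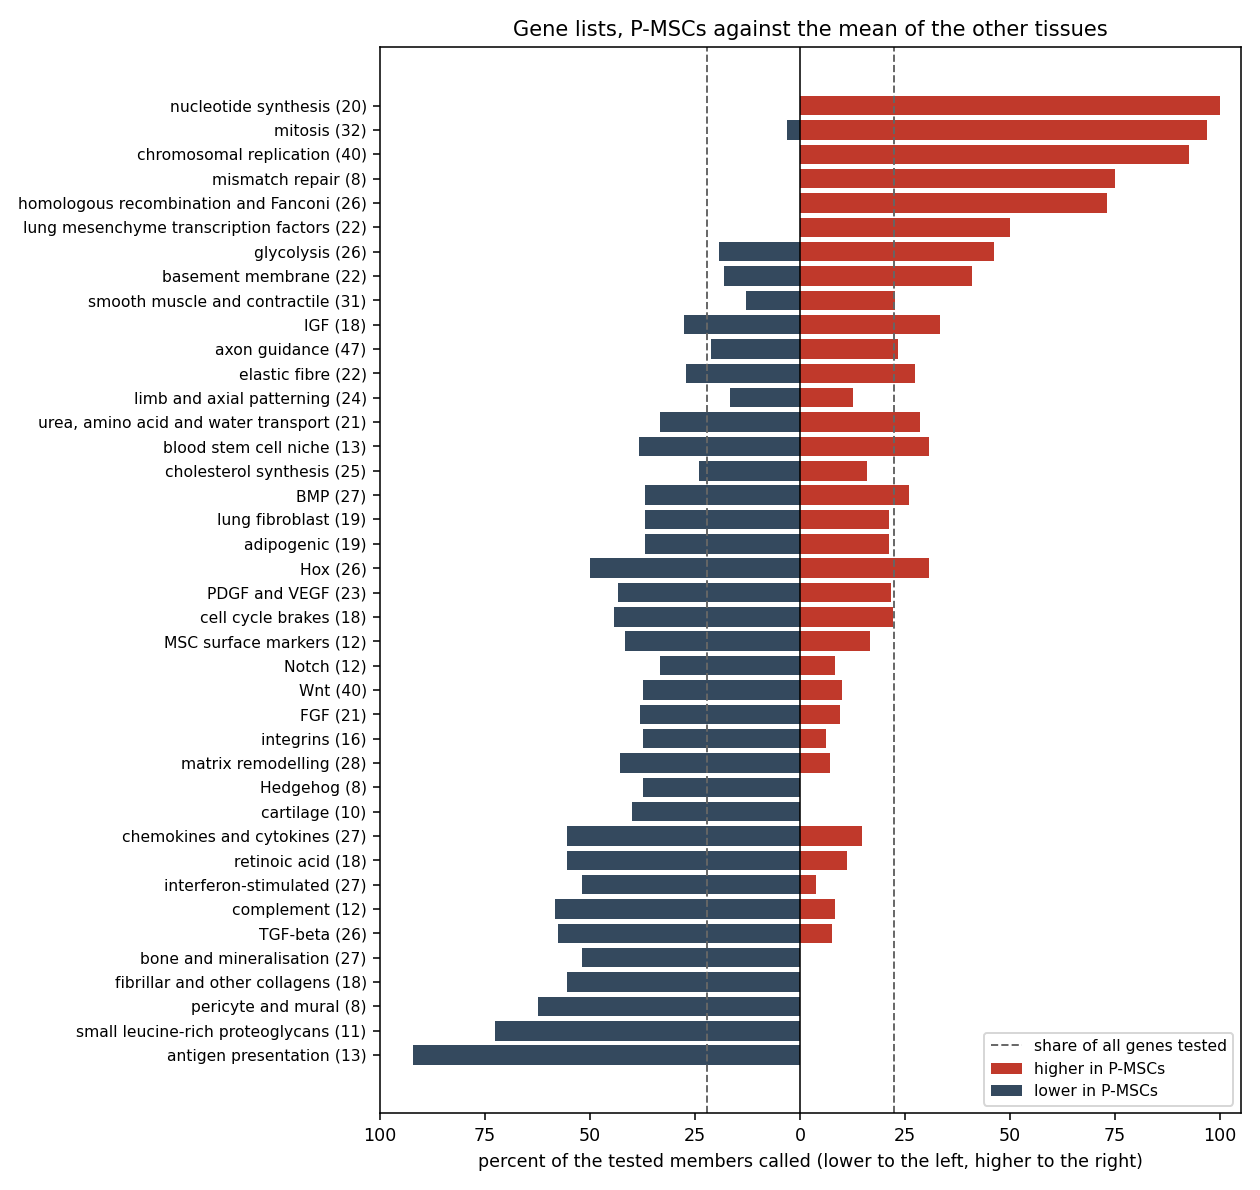
Percent of the tested members of each gene list called higher (red, to the right) or lower (dark, to the left) in P-MSCs by edgeR at an adjusted p under 0.05, with the number tested in parentheses and dashed lines at the 22.3% of all genes tested called in each direction. Nucleotide synthesis, mitosis and replication reach furthest to the right, and antigen presentation and the small leucine-rich proteoglycans furthest to the left.

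Genes of the interstitial matrix were mostly lower than in bone marrow MSCs. Of 18 tested collagens of fibrils and related forms, 10 were lower and none higher (median −1.09), and 1 was higher without fBM-MSC replicate 3 or vBM-MSC replicate 2 and 3 without the vBM-MSC group. Against A-MSCs alone 2 collagens were lower and 2 higher (median −0.31), where 16% of all genes were lower and 14.9% higher. Against each bone marrow tissue 10 collagens were lower, where 24.7% of all genes were lower than in fBM-MSCs and 21% than in vBM-MSCs. Col3a1, which forms fine fibrils with collagen I, was at 4.46, 5.65 and 6.93 TPM in P-MSCs against 22.8 to 167 TPM elsewhere (−3.68 ± 0.29, SE, adjusted p = 3.2e-06). Col1a1 and Col1a2 differed less, by −0.89 ± 0.28 and −0.75 ± 0.25, with overlap between tissues. Of 11 small leucine-rich proteoglycans, which bind collagen fibrils, 8 were lower and none higher, with a median of −3.47 in edgeR and −1.76 on log2(TPM + 1). Fmod was at 0.33 to 0.96 TPM against 4.75 to 460 TPM (−6.63 ± 0.77, SE) and Prelp at 2.41 to 3.63 TPM against 11.8 to 938 TPM, while biglycan, Bgn, was at 1376 to 1458 TPM within the range of the others.

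Among 28 genes that remodel matrix, 12 were lower and 2 higher, and 1 was higher without any 1 of the P-MSC libraries, A-MSC replicate 2 or replicate 3, fBM-MSC replicate 2 or vBM-MSC replicate 1. Mmp2, a gelatinase, was at 17.7 to 24.9 TPM against 75.9 to 486 TPM (−3.21 ± 0.31, SE), and its inhibitor Timp3 at 241 to 264 TPM against 609 to 1759 TPM (−2.05 ± 0.18, SE). The protease inhibitor Serpine2 differed by −4.71 ± 0.48. Plau, the urokinase plasminogen activator, was higher (1.36 ± 0.14, SE), and so was Mmp16 (0.50 ± 0.18, SE), whose levels overlapped. Of 16 integrin chains, 6 were lower (37.5%, beside 22.3% of all genes), among them Itga11 and Itgb3 (−4.07 ± 0.49, SE). Itgb7 alone was higher (6.2%), a call lost without P-MSC replicate 1 or replicate 3.

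Basement membrane genes went the other way in part. Of 22 tested, 9 were higher (40.9%) and 4 lower (18.2%, near the 22.3% of all genes), with a median of 0.19. Nid1, which links laminin to collagen IV, was at 279, 309.5 and 277 TPM in P-MSCs, 167 to 191 TPM in A-MSCs and 35.0 to 139 TPM in bone marrow MSCs (1.36 ± 0.21, SE). The laminin chains Lamb1 (0.80 ± 0.15) and Lamc1 (0.75 ± 0.16) were higher without overlap. Col4a3 and Col4a4, whose products assemble with that of Col4a5 in lung and kidney basement membranes, were at 0.90 to 2.35 and 0.61 to 0.79 TPM in P-MSCs and at no more than 0.34 and 0.17 TPM elsewhere. Sparc, which binds collagen in both kinds of matrix, was lower (−1.04 ± 0.14, SE).

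Of 22 elastic fibre genes, 6 were higher and 6 lower (27.3% each, beside 22.3% of all genes in each direction). Elastin itself, Eln, was at 0.27 to 1.01 TPM in P-MSCs and 0 to 0.72 TPM elsewhere and was not called (1.57 ± 1.20, SE, adjusted p = 0.3). Fbln2 was at 720 to 902 TPM against 59.5 to 417 TPM (1.30 ± 0.39, SE, adjusted p = 0.02), and Loxl1 (0.62 ± 0.10) and Loxl4 (1.30 ± 0.17) were higher. The cross-linking enzyme Lox was at 673 to 690 TPM against 958 to 2539 TPM (−1.49 ± 0.22, SE), and Loxl2, Loxl3 and Mfap2 were lower. Without P-MSC replicate 2 or replicate 3, 3 genes of this list were called higher.

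Genes of bone were lower in P-MSCs than in bone marrow MSCs. Of 27 tested, 14 were lower and none higher against the mean of the tissues (1 higher without fBM-MSC replicate 2 or vBM-MSC replicate 2), with a median of −3.51, or −3.18 with the 5 members that had no count in P-MSCs at the bound their counts allow. Against fBM-MSCs 24 were lower and none higher, against vBM-MSCs 18 and none, and against A-MSCs 5 were lower and 3 higher, near the 16% and 14.9% of all genes. The median was −6.00 against fBM-MSCs, −4.02 against vBM-MSCs and −0.42 against A-MSCs. Spp1, the mineral-binding osteopontin, was at 283.5, 160.5 and 220.1 TPM in P-MSCs, 352 to 384 TPM in A-MSCs, 1562 and 9037 TPM in vBM-MSCs and 26353 to 84015 TPM in fBM-MSCs (−4.48 ± 0.56, SE, adjusted p = 7.6e-05). Alpl, the mineralising alkaline phosphatase, had no count in P-MSCs and was at 0 to 173 TPM elsewhere. Of 10 tested cartilage genes, 4 were lower, with all libraries and without P-MSC replicate 1, among them Sox9, the master factor of cartilage (1.53 to 2.87 TPM against 6.44 to 12.3 TPM, −2.24 ± 0.22, SE).

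Genes of the fat programme were divided. Of 19 adipogenic genes, 7 were lower (36.8%) and 4 higher (21.1%, near the 22.3% of all genes), and without P-MSC replicate 1 or replicate 2, 4 were lower. Fabp4, a fatty acid carrier of fat cells, was at 2.68 to 3.84 TPM in P-MSCs against 22.0 to 140 TPM (−4.27 ± 0.53, SE), Cebpa at 0.02 to 0.15 TPM against 0.74 to 4.28 TPM (−4.90 ± 0.61, SE), and Pparg, which directs fat cell formation, at 2.26 to 3.48 TPM against 3.72 to 12.7 TPM (−1.26 ± 0.34, SE, adjusted p = 0.01). Fatty acid synthase, Fasn, was higher (0.80 ± 0.17, SE). Of 13 genes of the blood stem cell niche, 4 were higher (2 without P-MSC replicate 1) and 5 lower (3 without P-MSC replicate 2). The chemokine Cxcl12, which keeps blood stem cells in place, was at 452, 376 and 454 TPM in P-MSCs against 178 to 373 TPM (0.65 ± 0.17, SE, adjusted p = 0.01), with the lowest P-MSC library just above vBM-MSC replicate 1. Ebf1, a factor of marrow stroma, was lower (−2.56 ± 0.27, SE).

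Contractile and fibroblast genes gave calls in both directions. Of 31 tested smooth muscle genes, 7 were higher (22.6%) and 4 lower (12.9%, and 2 genes without P-MSC replicate 2), against 22.3% of all genes tested in each direction, and the median was −0.09. The smooth muscle actin Acta2, at 2885 to 3311 TPM, and Tagln were within the range of the others. Against single tissues the list divided: the median was −0.82 against A-MSCs and 1.06 against fBM-MSCs. Myh11, the smooth muscle myosin, was at 3.41 to 5.05 TPM in P-MSCs, below the 5.28 to 8.38 TPM of A-MSCs and above the no more than 0.79 TPM of the bone marrow MSCs. Of 8 tested pericyte genes, 5 were lower, among them Notch3 (−2.75 ± 0.54, SE) and Ndufa4l2 (−3.59 ± 0.61, SE). Of 19 tested lung fibroblast genes, 4 were higher (21.1%) and 7 lower (36.8%): Npnt (1.36 ± 0.35) and Pdgfra (1.30 ± 0.26), a receptor that marks alveolar fibroblasts, were higher than the mean of the tissues, and Gpx3 (−2.84 ± 0.51) and Wnt2 (0.53 to 0.95 TPM against 0.10 to 30.7 TPM) lower. Npnt was lower than in A-MSCs, at 18.9 to 25.9 TPM against 32.6 to 44.1 TPM, and Pdgfra overlapped with A-MSCs, at 5.74 to 7.42 TPM against 6.37 to 7.93 TPM.

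Several signalling lists held more lower than higher genes against the mean of the tissues. Of 40 tested Wnt genes, 15 were lower and 4 higher (2 higher without P-MSC replicate 1), with a median of −1.05. Dkk2 rose, and so did the Wnt5a receptor Ror2 (1.22 ± 0.29, SE), while the receptor Fzd1 (−2.11 ± 0.26), the ligand Wnt11 (−2.95 ± 0.54) and the feedback genes Nkd1 and Nkd2 (−2.83 ± 0.50 and −2.45 ± 0.40) were lower. Against A-MSCs the median of the list was −0.16, against −1.69 for fBM-MSCs and −1.52 for vBM-MSCs. Of 8 Hedgehog genes 3 were lower, led by the co-receptor Gas1 (−4.22 ± 0.36, SE).

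In the TGF-beta family, 15 of 26 genes were lower and 2 higher (1 higher without any 1 of the P-MSC libraries or vBM-MSC replicate 1). The ligands Tgfb1 (−1.54 ± 0.24), Tgfb2 (−2.12 ± 0.18) and Inhbb (−6.65 ± 0.67) and the receptor Tgfbr1 (−1.36 ± 0.19) were lower with no overlap. The BMP list was divided, with 7 of 27 higher (25.9%, near the 22.3% of all genes) and 10 lower (37.0%). With the other libraries as 1 group 1 was higher and 2 lower. In the main test the ligand genes Bmp2 (−2.27 ± 0.61) and Bmp4 (−2.23 ± 0.42) were lower. The target genes Id1 (0.49 ± 0.11), Id3 (0.36 ± 0.10) and Id4 (1.78 ± 0.31) and the antagonist Grem1 (1.30 ± 0.22) were higher. Of 21 FGF genes, 8 were lower (5 without P-MSC replicate 3) and 2 higher (1 without P-MSC replicate 1 or replicate 2). The feedback genes Dusp6 (−0.90 ± 0.11) and Spry4 (−0.98 ± 0.18) were lower, and Fgf7 (128 to 157 TPM) was not called. Of 12 Notch genes, 4 were lower and 1 higher. Against A-MSCs alone, the TGF-beta list held 12 lower and 2 higher genes, the BMP list 4 and 7, the FGF list 3 and 2 and the Notch list 0 and 1. In this contrast 16% of all genes were lower and 14.9% higher, near the shares of the BMP and FGF lists that were lower.

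The IGF list held about as many higher as lower genes. Of 18 IGF genes, 6 were higher (33.3%) and 5 lower (27.8%), beside 22.3% of all genes in each direction. Without any 1 of the P-MSC or A-MSC libraries 3 were lower. Igf2bp1, an oncofetal protein that stabilises mRNAs, was at 3.84, 4.05 and 4.73 TPM in P-MSCs against 0.04 to 0.75 TPM elsewhere (3.82 ± 0.25, SE, adjusted p = 8.3e-07), and its relatives Igf2bp3 (2.15 ± 0.25) and Igf2bp2 (1.56 ± 0.21) rose without overlap. Of 23 PDGF and VEGF genes, 10 were lower (6 without P-MSC replicate 3) and 5 higher (21.7%, near the 22.3% of all genes). Kdr, the main VEGF-A receptor, was at 2.84, 2.51 and 2.33 TPM against 0 to 0.55 TPM (4.16 ± 0.71, SE), and Flt4, the VEGF-C receptor, at 8.10, 8.90 and 6.94 TPM against 0.02 to 3.63 TPM (3.52 ± 0.48, SE). Both are known from endothelium. Of the endothelial list, Pecam1 and Cdh5 were near 0 in the P-MSC libraries, while Emcn was at 5.13, 4.69 and 0.14 TPM, Ecscr at 8.55 to 12.9 TPM and Egfl7 at 4.02 to 6.22 TPM, none of them called, and Sox17, too low to be tested, had 43, 13 and 8 counts against 0 in every other library. The part of endothelial cells in the levels of Kdr and Flt4 was not tested. Kdr overlaps the gene model Gm32727.

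Of 47 axon guidance genes, 11 were higher (5 without P-MSC replicate 1 and 7 without replicate 2) and 10 lower, shares of 23.4% and 21.3% that were near the 22.3% of all genes. The secreted semaphorins Sema3a and Sema3c were the most abundant of the higher ones. Sema3a was at 44.3, 46.4 and 64.7 TPM in P-MSCs against 2.30 to 12.6 TPM elsewhere (2.75 ± 0.22, SE, adjusted p = 3.0e-06), and Sema3c at 49.1 to 60.8 TPM against 2.41 to 31.7 TPM (2.15 ± 0.25, SE). Of 18 retinoic acid genes, 10 were lower (6 without P-MSC replicate 2 or replicate 3) and 2, Crabp1 and the synthesising enzyme Aldh1a2 (2.10 ± 0.16, SE), higher. Aldh1a2 was at 17.3 to 21.2 TPM and up to 23.6 TPM elsewhere, so its levels overlapped. Dhrs3, Crabp2, the degrading enzyme Cyp26b1 (0 to 0.09 TPM against 0.15 to 11.6 TPM) and Aldh1a3 (−3.66 ± 0.29, SE) were lower.

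Immune genes were more often lower than higher in P-MSCs. Class I molecules present peptides cut by the immunoproteasome and carried by the TAP transporter. Of 13 tested genes of antigen presentation, 12 were lower and none higher (median −1.74). H2-K1 was at 22.4, 20.1 and 18.9 TPM in P-MSCs, 41.02 to 58.0 TPM in A-MSCs, 51.5 and 69.6 TPM in vBM-MSCs and 110.1 to 254 TPM in fBM-MSCs (−2.15 ± 0.23, SE, adjusted p = 2.4e-05). The proteasome subunit Psmb8 (0.29 to 2.70 TPM against 4.68 to 26.1 TPM), the transporter Tap2 (−1.74 ± 0.19) and the loading factor Tapbp (−1.83 ± 0.16) were lower without overlap. H2 genes are near-identical copies among which RSEM divides shared reads, so their single values are uncertain.

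Of 27 interferon-stimulated genes, 14 were lower and 1, Ifit2, higher (0.83 ± 0.23, SE, adjusted p = 0.01), with a median of −1.35. Without P-MSC replicate 3 no gene of this list was called higher, and without vBM-MSC replicate 1 the number was 2. Ifitm3, which blocks the entry of viruses, was at 446.6, 384 and 410.1 TPM in P-MSCs against 949 to 1532 TPM elsewhere (−1.65 ± 0.16, SE), and Irgm1 at 29.9 to 32.9 TPM against 44.0 to 123.2 TPM (−1.35 ± 0.14, SE).

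Of 27 chemokines and cytokines, 15 were lower and 4 higher (2 without P-MSC replicate 1). Ccl7, which draws monocytes, was at 42.0, 32.2 and 26.2 TPM in P-MSCs against 154 to 426 TPM (−3.40 ± 0.36, SE, adjusted p = 2.2e-05), and Il1rn, the antagonist of interleukin 1, had no count in P-MSCs and was at 0.06 to 32.6 TPM elsewhere. Il1rl1, the receptor of interleukin 33, was at 46.4, 36.1 and 47.5 TPM in P-MSCs against 1.69 to 24.4 TPM (2.18 ± 0.44, SE, adjusted p = 0.0019). Of 12 complement genes, 7 were lower, among them C1s1 (−2.58 ± 0.28) and Serping1 (−3.13 ± 0.31), and 1, Masp1, higher with overlap.

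Among metabolic genes, 12 of 26 genes of glycolysis were higher (46.2%) and 5 lower (19.2%, near the 22.3% of all genes), with a median of 0.33. Ankrd37, a hypoxia-induced gene, was at 41.5 to 47.9 TPM against 1.67 to 15.8 TPM (2.91 ± 0.24, SE), the lactate exporter Slc16a3 at 122.9 to 146 TPM against 8.44 to 98.2 TPM (2.16 ± 0.23, SE), and Pgk1 at 980 to 1004 TPM against 444 to 738 TPM (0.73 ± 0.09, SE). Against A-MSCs alone 2 of the 26 genes were higher and 3 lower, where 14.9% of all genes were higher and 16% lower. Of 25 genes of cholesterol synthesis, 4 were higher (16%) and 6 lower (24%), below and near the 22.3% of all genes. Among 21 transporters of urea, amino acids and water 6 were higher (28.6%, and 3 genes without P-MSC replicate 2) and 7 lower (33.3%), beside the same 22.3%. Of 4 tested glial and muscle genes 3, Tnnt2, Acta1 and Mbp, were higher, the last 2 with overlap, and of 4 tested Y-linked genes 2 were slightly lower and none higher.

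Set side by side, the lists differed in how P-MSCs stood to each tissue. Against A-MSCs the medians of bone, Wnt and mitosis genes were nearer to 0 than against either bone marrow tissue. Hox genes went both ways against fBM-MSCs, with 11 higher and 12 lower of 26 (beside 23% and 24.7% of all genes), whereas 1 was higher and 13 lower against A-MSCs and 1 and 12 against vBM-MSCs. The median of antigen presentation was negative against all 3 tissues, with −1.06 against A-MSCs, −1.98 against fBM-MSCs and −1.91 against vBM-MSCs. Against A-MSCs 7 of 13 of its genes were called lower. Its summed levels were 2443 to 2524 TPM in P-MSCs, 1711 to 2483 TPM in A-MSCs, 4705 to 7887 TPM in fBM-MSCs and 2379 to 3833 TPM in vBM-MSCs. The sum was thus not lower than in A-MSCs and overlapped with vBM-MSCs. Interferon-stimulated genes also had negative medians, with −1.12, −1.44 and −1.42. The 3 contrasts share the P-MSC libraries.

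**Figure D5:**
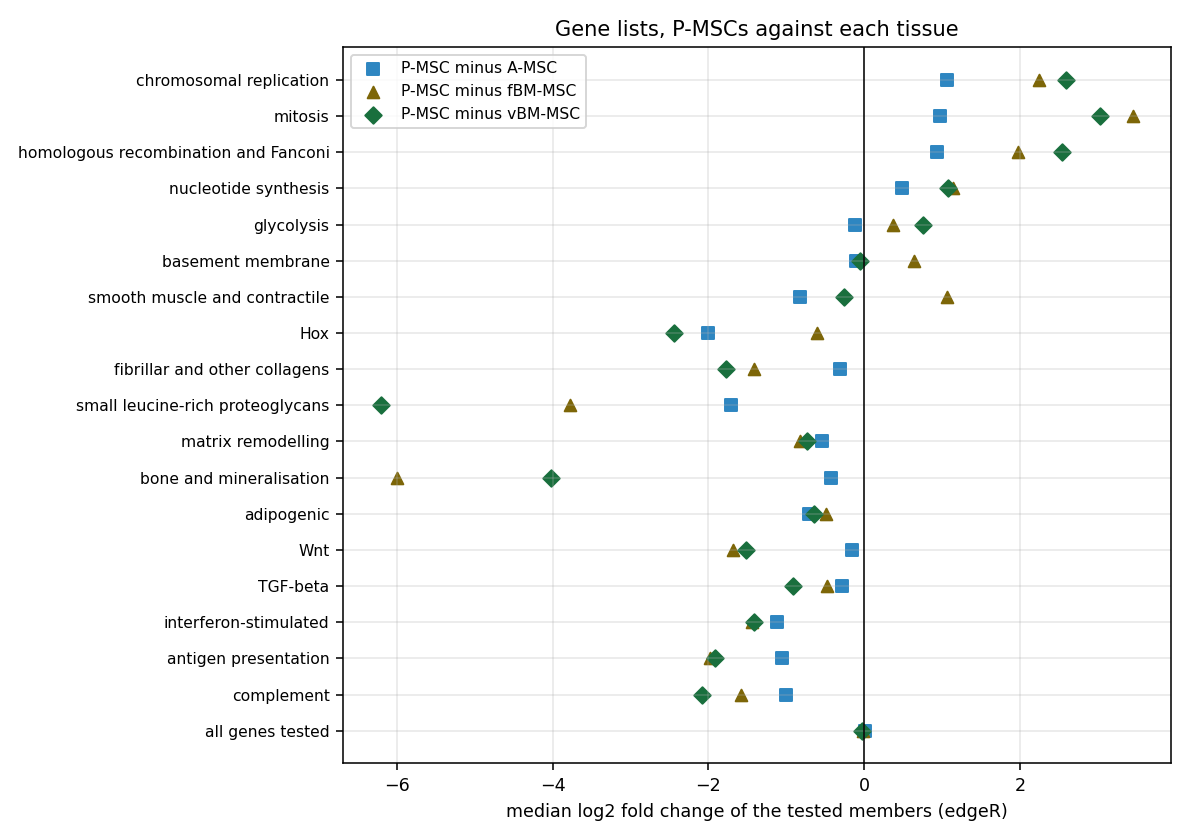
Median edgeR log2 fold change of the tested members of each gene list in P-MSCs minus each other tissue, with 1 point per tissue and a vertical line at 0. Mitosis and replication genes lie to the right for all 3 tissues, at 0.98 to 3.46 and 1.06 to 2.59, bone genes lie far to the left for fBM-MSCs (−6.00) and near 0 for A-MSCs (−0.42), and antigen presentation lies to the left for all 3.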

How the data were processed

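RNA was measured by Smart-seq2 in 11 libraries and open chromatin by ATAC-seq in 1 pooled peak list per tissue. The authors aligned paired reads with STAR inside RSEM to mm10 and deposited, per gene, the expected count (not normalized), the TPM and the FPKM (not used here). For ATAC-seq the authors trimmed with Trim Galore, aligned with Bowtie, removed duplicates with Picard and called peaks with MACS2; the deposited lists give the fold enrichment (a ratio) and −log10 q of each summit, and a score and p that were not used here. Versions are not given in the sources used here. Replicate 3 of vBM-MSCs was not analysed here.

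Expected counts were rounded and tested for 12509 of 24411 genes, those reaching 1 CPM in 2 or more libraries, in 1 model over all libraries (edgeR 4.0.16, R 4.3.3; quasi-likelihood, TMM, two-sided, Benjamini-Hochberg adjusted p under 0.05). limma 3.58.1 and DESeq2 1.42.0 gave alternatives, and Python 3.11.15 the lists, peaks and figures. Replicate separation into mice is not stated for each library, so p-values measure the spread between libraries. In simulated data for the comparison of P-MSCs with the mean of the others over 12509 genes, 66% of 2-fold and 84% of 4-fold changes were recovered, with 3.85% of calls false. The simulation changed far fewer genes than the 44.6% called here, and gave the other tissues equal levels. Its shares may therefore not hold for the real data. Summits at a −log10 q of at least 7 were assigned to RefSeq start sites of GRCm38 within 1 kb, for 12021 genes on chromosomes 1 to 19; 488 tested genes had none. Where a gene had no count on 1 side, a floor of 3 counts per library gave the bound; bounds cover counting error only.

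Named genes were the 4 markers Morc1, Mgl2, Prdm6 and Slc14a1, the 15 called genes without overlap per direction farthest from their nearest tissue with a mean of at least 2 TPM on the higher side, and the 4 most changed called members of each of 48 lists. Other list members were named after their values were seen. The members, lists and motifs were chosen with earlier results of these data known. Some genes of the lists are counted but not reported here by name.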

Additional observations from a re-analysis of the deposited data

How the results depend on the processing

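Calls of 2788 higher and 2794 lower genes fell to 1333 and 1529 with the other libraries as 1 group, and to 882 and 1038 where every pairwise contrast had to pass. Without any single replicate they ranged from 2163 to 2923 higher and from 2110 to 2926 lower, the lowest when a P-MSC library was left out. DESeq2 gave 2806 and 3112, and library size alone 3779 and 2057. Non-overlapping genes ranged from 2567 to 2843 higher and 1046 to 1211 lower without 1 replicate. Leaving a library out can only keep or raise these counts, so this range does not measure their stability. A gap of at least 1 on log2(TPM + 1) left 138 and 74. Of 96 list counts, 66 moved by over 1.5 times where every pairwise contrast had to pass, 53 with the other libraries as 1 group, 12 or 13 without 1 P-MSC library, 2 to 5 without 1 other library, 7 without the vBM-MSC group, 10 with library size alone, 5 under DESeq2 and 0 under RLE normalization. With the other libraries as 1 group, Msln (−0.86), Tcf21 (−1.09) and Upk1b (−0.24) turned negative, and Foxf1 (adjusted p = 0.0503), Tbx4 (0.0519) and Tbx5 (0.153) missed the threshold, as did Cdc6 (0.0624), Ndc80 (0.0591), Slc16a3 (0.135), Acta1, Cdkn2a, Crabp2, Dnmt3l, Krt7, Mbp, Mfap2 and Myh11 (0.0545 to 0.814); this setting widens the spread by the differences between tissues. The share of higher genes with a promoter summit in P-MSCs alone, 0.944%, was 0.369% with the peaks as deposited, 3.04% at a −log10 q of at least 20 and 5.93% for genes with the gap. Over all genes tested this share was 0.616%. It was 0.341% with the peaks as deposited, near that of the higher genes, and 2.23% at the stricter threshold. The share of lower genes with a promoter summit in all tissues but P-MSCs, 3.86%, was 2.24% at that stricter threshold and 15.3% with the gap, and 4.17% with both. Over all genes tested it was 1.04%, and 1.01% at the stricter threshold. Causes were not tested.

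Whether replicate numbers pair the libraries by mouse could not be settled. Deviations from the tissue means correlated at −0.028 to 0.125 between same-numbered libraries of 2 tissues, 1 of 15 over 0.1. Between differently numbered ones they correlated at −0.125 to 0.109. For 7 of 11 libraries the mean correlation was higher with same-numbered than with differently numbered libraries. Such deviations sum to 0 within a tissue of 2 or 3 libraries, so this check can neither show nor exclude pairing. With a replicate block, 2790 genes were higher and 2690 lower, and 6 of the 96 list counts moved by over 1.5 times. Depth limits the low genes: a gene with no count is not shown to be absent.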
